A study of Mus musculus with 9 samples.

Results

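The genes examined here encode the pathway by which leukemia inhibitory factor (LIF) keeps mouse embryonic stem cells (ESCs) in self-renewal: the ligand *Lif*, the receptor subunits *Lifr* and *Il6st*, the kinases *Jak1* and *Jak2*, the transcription factor *Stat3*, and *Socs3*, *Pim1* and *Pim3*, which STAT3 is known to activate. They were chosen by name from the textbook pathway, with earlier results of these data known, and matched by gene symbol. All 9 were among the 25239 gene symbols counted, and all 9 passed the filter on low counts that left 14125 genes for testing. RNA was sequenced from E14 ESCs (strain label 12910la), from a control line with genotype Rbbp4+/+, and from the mutant lines Rbbp4 Ins/Ins and Rbbp4 Ins/Del (Ins/Ins and Ins/Del hereafter), with 3 libraries per line and 9 libraries in all. RBBP4 is a histone-binding subunit of the Polycomb repressive complex PRC2 and of histone deacetylase complexes. Both mutant lines were made with CRISPR-Cas9, and each is 1 clone. Ins/Ins carries a small in-frame insertion on both alleles, which replaces 1 amino acid and adds a cysteine. Ins/Del carries that insertion on 1 allele and an in-frame deletion on the other. The labels list fetal bovine serum and LIF in the medium of every line, so the comparisons concern genotype at the same LIF supply and include no culture without LIF. An effect of the mutation and a property of 1 clone cannot be told apart. The labels do not say whether the libraries of a line came from separate cultures, so p-values measure the spread between these libraries, which may be technical.

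LIF binds its receptor LIFR, which pairs with gp130, the signal-transducing subunit encoded by *Il6st* and shared by the interleukin-6 family of cytokines. The JAK kinases bound to both chains phosphorylate them and then STAT3, which dimerizes, enters the nucleus and activates its target genes. SOCS3 binds gp130 and the JAKs and shuts the signal down, and the Pim kinases are serine/threonine kinases that favour growth and survival. In mouse ESCs held in serum, STAT3 activity is the branch of LIF signalling that blocks differentiation, while the MAPK branch favours it.

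The values are RNA levels and do not bear on STAT3 phosphorylation. Library totals ranged from 15838064 to 21366868 counted reads. Values are given as normalized counts, that is, counts divided by the effective library size (total counts scaled by TMM factors of 0.993 to 1.02) and multiplied by the mean effective size of the 9 libraries. Differences are log2 fold changes with their standard errors (SE). A gene is said to have risen or fallen where edgeR's quasi-likelihood test gave a Benjamini-Hochberg adjusted p at or below 0.01 over the 14125 genes. The targeted gene, *Rbbp4*, was at 9932, 9965 and 10117 normalized counts in the control, 5485, 5551 and 5776 in Ins/Ins and 10129, 10344 and 10603 in Ins/Del. Its transcript fell in Ins/Ins (log2 fold change -0.84, edgeR adjusted p = 1.78e-25) and was not called in Ins/Del (log2 fold change 0.05, edgeR adjusted p = 0.107). Neither in-frame change would be read from a gene's total count, so the count does not check the Ins/Del label.

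The ES cell label was held against marker genes. The 8 ES cell markers were all detected, and their summed normalized counts lay between 89621 and 93623 in the control, 110612 and 112984 in Ins/Ins, and 110756 and 113412 in Ins/Del. Of these, 5 rose and 2 fell in Ins/Ins (87.5% called), and 4 rose and 1 fell in Ins/Del (62.5% called). Over all tested genes, 58.4% passed in Ins/Ins (29.0% higher and 29.4% lower). In Ins/Del, 62.5% passed (30.6% higher and 31.9% lower). These shares are the background for the other marker counts in this paragraph as well, and no marker list was tested as a set. Markers of other cell types were low in sum. Fibroblast, primitive endoderm and trophectoderm markers moved in both directions in both lines, and mesoderm markers did so in Ins/Del. No tested neural progenitor marker rose in either line. The 10 fibroblast markers, a check for feeder cells, summed to 741 to 836 normalized counts in the control, 326 to 345 in Ins/Ins and 397 to 432 in Ins/Del. Of the 6 tested, 5 fell over 2-fold in both lines, while *Thy1* rose (log2 fold changes 2.43 and 2.77) and made up most of the sum in the mutants. The 8 primitive endoderm markers summed to 379 to 416, 236 to 294 and 340 to 362 in the same order, a sum carried by *Dab2* in the control, which fell. Of the 7 tested, 1 rose and 2 fell in Ins/Ins, whereas 4 rose and 2 fell in Ins/Del, so the sum does not give the direction of most members. The 7 trophectoderm markers summed to 1692 to 1735, 2152 to 2279 and 1424 to 1505, mostly from *Tfap2c*. Of the 6 tested, 2 rose and 3 fell in Ins/Ins, against the direction of the sum, and 1 rose and 4 fell in Ins/Del. The 6 mesoderm markers summed to 88.1 to 123 in the control, 81.2 to 93.2 in Ins/Ins and 102 to 121 in Ins/Del, with *Mesp1* at 0 in the control and *Msgn1* at 0 in both mutants. Of the 4 tested, 1 fell in both lines and 1 rose in Ins/Del. The 6 neural progenitor markers differed most in sum, with 2564 to 2570 in the control, 423 to 445 in Ins/Ins and 385 to 418 in Ins/Del, and 2 of the 3 tested fell in both lines. The part of these marker differences in the values below was not tested. In bulk RNA, fewer cells of a type and less RNA per cell cannot be told apart.

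Sequences around an annotated transcription start are shown for 4 members: *Lifr* and *Il6st*, the receptor pair whose transcripts moved in opposite directions, *Pim1*, the member that fell most in Ins/Del, and *Socs3*, the pathway's own inhibitor. Each is a RefSeq window of 300 bases on GRCm38.p6, from 250 bases before an annotated transcription start to 50 after it, written 5′ to 3′ on the gene's strand. Capitals mark matches to TTCNNNGAA, the palindrome that STAT dimers are known to bind. Since it is its own reverse complement, 1 search covers both strands. *Lifr* and *Pim1* each have a further window, at chr15:7140292-7140591 and chr17:29492835-29493134, which is not printed and held no match. For both genes the window further upstream is shown. The gene positions given below are from GENCODE, and by them the printed *Lifr* window lies inside the gene.
Lifr (plus strand, chr15:7129322-7129621): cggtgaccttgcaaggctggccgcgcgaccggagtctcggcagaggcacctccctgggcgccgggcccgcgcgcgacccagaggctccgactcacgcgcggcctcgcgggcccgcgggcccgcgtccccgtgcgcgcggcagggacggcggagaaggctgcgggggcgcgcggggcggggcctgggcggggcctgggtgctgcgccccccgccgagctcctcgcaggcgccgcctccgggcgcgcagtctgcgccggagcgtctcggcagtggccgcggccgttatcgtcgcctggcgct
Il6st (plus strand, chr13:112463820-112464119): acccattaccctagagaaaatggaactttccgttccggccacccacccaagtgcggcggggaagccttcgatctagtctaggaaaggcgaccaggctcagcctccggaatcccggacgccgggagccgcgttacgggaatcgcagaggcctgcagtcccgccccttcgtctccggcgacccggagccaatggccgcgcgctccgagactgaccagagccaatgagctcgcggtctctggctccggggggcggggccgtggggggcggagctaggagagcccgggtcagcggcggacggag
Pim1 (plus strand, chr17:29490535-29490834): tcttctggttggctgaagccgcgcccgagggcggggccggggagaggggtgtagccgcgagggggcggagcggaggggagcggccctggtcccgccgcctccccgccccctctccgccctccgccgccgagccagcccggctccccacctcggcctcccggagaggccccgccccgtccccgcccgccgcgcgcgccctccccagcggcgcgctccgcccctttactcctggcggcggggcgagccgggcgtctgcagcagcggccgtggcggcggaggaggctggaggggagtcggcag
Socs3 (minus strand, chr11:117969317-117969616): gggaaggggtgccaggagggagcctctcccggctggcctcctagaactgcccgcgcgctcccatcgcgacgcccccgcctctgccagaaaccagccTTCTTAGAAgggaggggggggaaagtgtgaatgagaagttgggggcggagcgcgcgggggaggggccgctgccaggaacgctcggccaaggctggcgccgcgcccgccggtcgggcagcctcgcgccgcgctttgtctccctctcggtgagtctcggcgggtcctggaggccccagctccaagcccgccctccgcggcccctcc

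Of the 11 windows annotated for the 9 members, 1 held the motif, the *Socs3* window. Its match TTCTTAGAA begins 154 bases before the RefSeq start site of that window, at -154, and lies at chr11:117969512-117969520. GENCODE gives *Socs3* a longer span, chr11:117966079-117970047 on the minus strand. The match lies inside that span, so whether it is upstream depends on the annotation. Of all 32851 windows in the table, 2726 held a match, which is 8.298%. The 10 windows of 8 further STAT3 targets and Pim genes held 0. A match in a window this short describes letters only, and no match says nothing about binding elsewhere at the gene.

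In Ins/Ins, 6 of the 9 members passed the test, where 58.4% of all tested genes did (29.0% higher and 29.4% lower). *Lifr* rose, and *Il6st*, *Jak1*, *Jak2*, *Stat3* and *Pim1* fell. In Ins/Del, 5 of 9 passed, against 62.5% of all tested genes (30.6% higher and 31.9% lower). There *Lifr* rose, and *Il6st*, *Jak1*, *Jak2* and *Pim1* fell. These total shares were near those of all genes. By direction, 1 member was higher and 5 were lower in Ins/Ins, and 1 was higher and 4 were lower in Ins/Del. Whether the directions of the members differ from the shares of all genes was not tested. The changes of the members were small. The median absolute log2 fold change of the 9 members was 0.28 in Ins/Ins and 0.19 in Ins/Del, beside 0.30 and 0.34 over all tested genes, and 0 members changed over 2-fold in either line. Both comparisons use the same 3 control libraries, so the lines' values are given side by side and the likeness between them is not evidence from separate experiments.

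**Figure D1:**
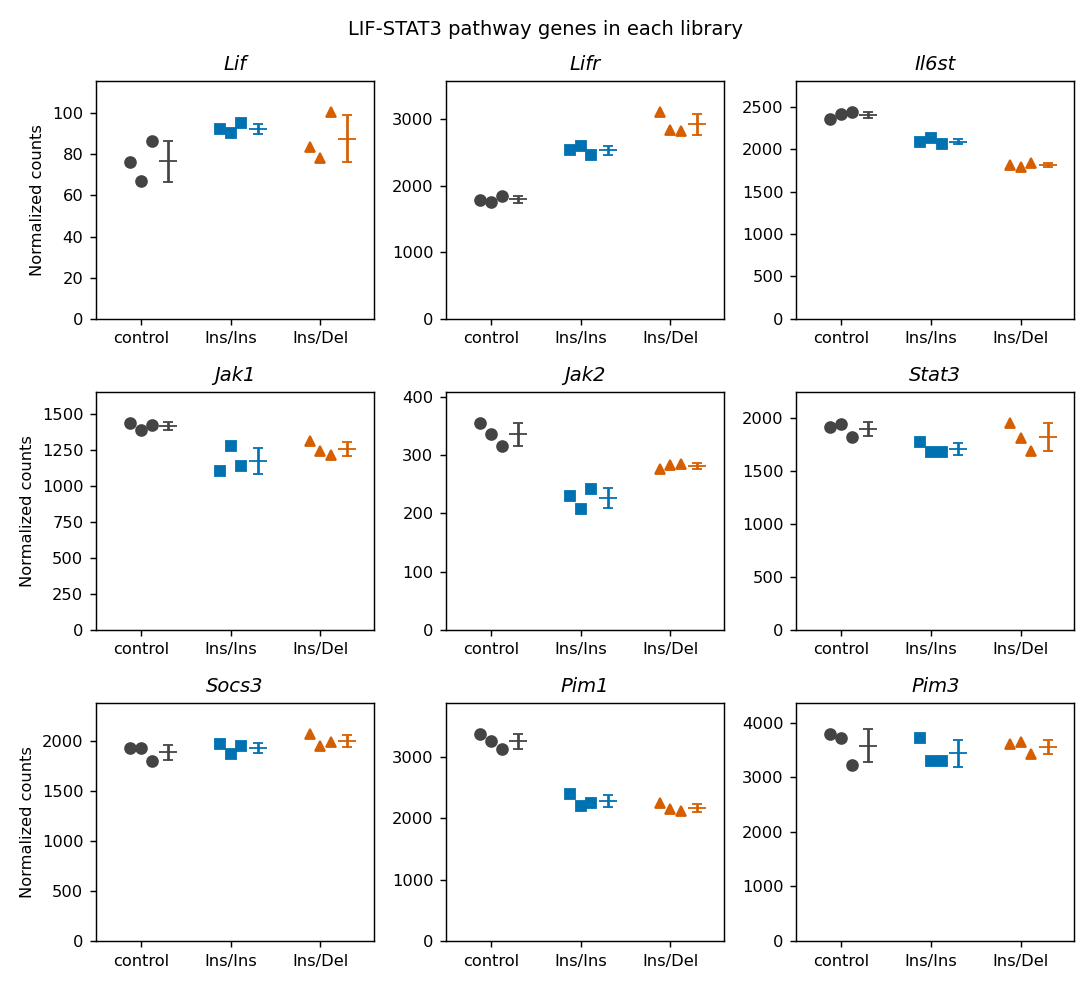
Normalized counts of each LIF-STAT3 gene (y axes, each from 0) in the 3 control, 3 Ins/Ins and 3 Ins/Del libraries (x axes), as points, with the mean and SD (n = 3) as a bar beside them. Every *Lifr* point of both mutants lies above the control points, every *Il6st*, *Jak1*, *Jak2* and *Pim1* point lies below them, and the *Pim3* points of the 3 lines overlap.

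*Lif*, the cytokine gene itself (chr11:4257557-4272514, plus strand of GRCm38, as for the positions below), was the least abundant member. It had 76.1, 67.0 and 86.6 normalized counts in the control, 92.4, 90.3 and 95.1 in Ins/Ins, and 83.8, 78.5 and 100.7 in Ins/Del. The Ins/Ins libraries all lay above the control libraries, while those of Ins/Del overlapped them. Neither difference passed the test: the log2 fold change was 0.28 (SE 0.14, edgeR adjusted p = 0.089) in Ins/Ins and 0.19 (SE 0.15, edgeR adjusted p = 0.259) in Ins/Del. The 95% intervals ran from -0.02 to 0.57 and from -0.11 to 0.48, so at 64 to 108 reads per library a rise of up to 1.48-fold in Ins/Ins lay within the interval.

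*Lifr* (chr15:7090614-7197489, plus strand), which encodes the chain that binds LIF, was the only member that rose, and it did so in both lines. Its normalized counts were 1777, 1750 and 1848 in the control, 2533, 2595 and 2458 in Ins/Ins, and 3105, 2831 and 2823 in Ins/Del. The 3 lines did not overlap, and Ins/Del was highest. *Lifr* rose by 41.1% in Ins/Ins (log2 fold change 0.50, SE 0.039, edgeR adjusted p = 3.48e-14) and by 63.0% in Ins/Del (log2 fold change 0.70, SE 0.039, edgeR adjusted p = 4.95e-19). Of all tested genes, 34.3% and 27.8% had a larger absolute log2 fold change in the respective lines.

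*Il6st* (chr13:112464070-112510086, plus strand), which encodes gp130, moved the other way. The control libraries had 2360, 2415 and 2438 normalized counts, those of Ins/Ins 2080.2, 2129 and 2061, and those of Ins/Del 1817, 1786 and 1835. The lines were again separate, with Ins/Del lowest. *Il6st* fell by 13.0% in Ins/Ins (log2 fold change -0.20, SE 0.035, edgeR adjusted p = 3.86e-06) and fell by 24.6% in Ins/Del (log2 fold change -0.41, SE 0.036, edgeR adjusted p = 5.58e-13).

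Since LIFR and gp130 act as a pair, the ratio of their transcripts was taken in each library after dividing each count by the length of the gene's exons. The control libraries had 0.776, 0.747 and 0.781 *Lifr* per *Il6st*, the Ins/Ins libraries 1.25, 1.26 and 1.23, and the Ins/Del libraries 1.76, 1.63 and 1.58. The ratio was thus below 1 in every control library and above 1 in every mutant library, with means of 0.768 ± 0.018 (SD, n = 3), 1.25 ± 0.015 (SD, n = 3) and 1.66 ± 0.091 (SD, n = 3). The mean ratio of Ins/Ins was 1.62-fold and that of Ins/Del 2.16-fold the control's. With the longest transcript in place of all exons as the length, the means were 0.670, 1.09 and 1.45.

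The kinase genes *Jak1* and *Jak2* both fell in both lines. *Jak1* (chr4:101152367-101265282, minus strand), the kinase with the larger part in gp130 signalling, had 1438, 1390.1 and 1428 normalized counts in the control, 1106, 1281 and 1142 in Ins/Ins, and 1316, 1243 and 1217 in Ins/Del. All mutant libraries lay below the control, and the mutants overlapped each other. *Jak1* fell by 17.4% in Ins/Ins (log2 fold change -0.28, SE 0.047, edgeR adjusted p = 3.37e-06) and fell by 11.3% in Ins/Del (log2 fold change -0.17, SE 0.047, edgeR adjusted p = 0.0014). The second call was lost without Ins/Del library 2 (edgeR adjusted p = 0.0102) or library 3 (edgeR adjusted p = 0.0128).

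*Jak2* (chr19:29251828-29313080, plus strand) was the scarcer kinase and the member that fell most in Ins/Ins. The control libraries had 355, 336 and 315 normalized counts, those of Ins/Ins 230.1, 208 and 242, and those of Ins/Del 276, 283 and 285. The lines did not overlap, and Ins/Del lay between the others. *Jak2* fell by 32.5% in Ins/Ins (log2 fold change -0.57, SE 0.082, edgeR adjusted p = 1.5e-07) and fell by 16.4% in Ins/Del (log2 fold change -0.26, SE 0.080, edgeR adjusted p = 0.00433). The Ins/Del call did not hold in DESeq2 (adjusted p = 0.0346), nor in edgeR without control library 1 or 2 or without any 1 of the Ins/Del libraries, where the adjusted p lay between 0.0101 and 0.0381.

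*Stat3* (chr11:100885098-100939540, minus strand) itself changed little. It had 1908, 1944 and 1817 normalized counts in the control, 1774, 1673 and 1675 in Ins/Ins, and 1948, 1810.0 and 1689 in Ins/Del. The Ins/Ins libraries lay below the control libraries, and the Ins/Del libraries spread across both. *Stat3* fell by 9.56% in Ins/Ins (log2 fold change -0.14, SE 0.043, edgeR adjusted p = 0.00335), while in Ins/Del the log2 fold change was -0.06 (95% interval -0.14 to 0.03, edgeR adjusted p = 0.24). The call in Ins/Ins was lost in DESeq2 (adjusted p = 0.0106) and in edgeR without control library 1 or 2 or Ins/Ins library 2 or 3, where the adjusted p lay between 0.0131 and 0.032. Of the exons of *Stat3*, 0.756% overlap the neighbouring *Stat5a* on the opposite strand.

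*Socs3* (chr11:117966079-117970047, minus strand), the feedback inhibitor and a direct STAT3 target, did not pass the test in either line. Its normalized counts were 1927.0, 1927 and 1796 in the control, 1962, 1869.8 and 1950.4 in Ins/Ins, and 2064, 1947 and 1987 in Ins/Del. The Ins/Ins libraries overlapped the control, and those of Ins/Del lay just above it. The log2 fold change was 0.03 (95% interval -0.05 to 0.11, edgeR adjusted p = 0.458) in Ins/Ins and 0.08 (95% interval 0.01 to 0.16, edgeR adjusted p = 0.0503) in Ins/Del. The *Socs3* window printed above was the member window with a STAT motif, and its gene was among the members that did not pass the test.

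*Pim1* (chr17:29490753-29496112, plus strand), a kinase gene induced by STAT3 in many cell types, fell in both lines. The control libraries had 3372, 3260 and 3135 normalized counts, those of Ins/Ins 2398, 2202 and 2243, and those of Ins/Del 2250.0, 2155 and 2121. Both mutants lay below the control and overlapped each other. *Pim1* fell by 29.9% in Ins/Ins (log2 fold change -0.51, SE 0.037, edgeR adjusted p = 2.86e-15) and fell by 33.2% in Ins/Del (log2 fold change -0.58, SE 0.037, edgeR adjusted p = 5.74e-17). An antisense gene, Gm26885, overlaps 14.5% of its exons on the other strand, and without a known strand setting reads of the overlap cannot be assigned to 1 of the pair.

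*Pim3* (chr15:88862186-88865726, plus strand) was the most abundant member per length and did not pass the test in either line. It had 3786, 3713 and 3232 normalized counts in the control, 3716, 3292 and 3296 in Ins/Ins, and 3612, 3653 and 3417 in Ins/Del. All lines overlapped, and the control's own spread was 301 (SD, n = 3) around a mean of 3577. The log2 fold change was -0.06 (95% interval -0.15 to 0.03, edgeR adjusted p = 0.243) in Ins/Ins and -0.01 (95% interval -0.10 to 0.08, edgeR adjusted p = 0.883) in Ins/Del, and the sign of the latter turned with the processing.

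**Figure D2:**
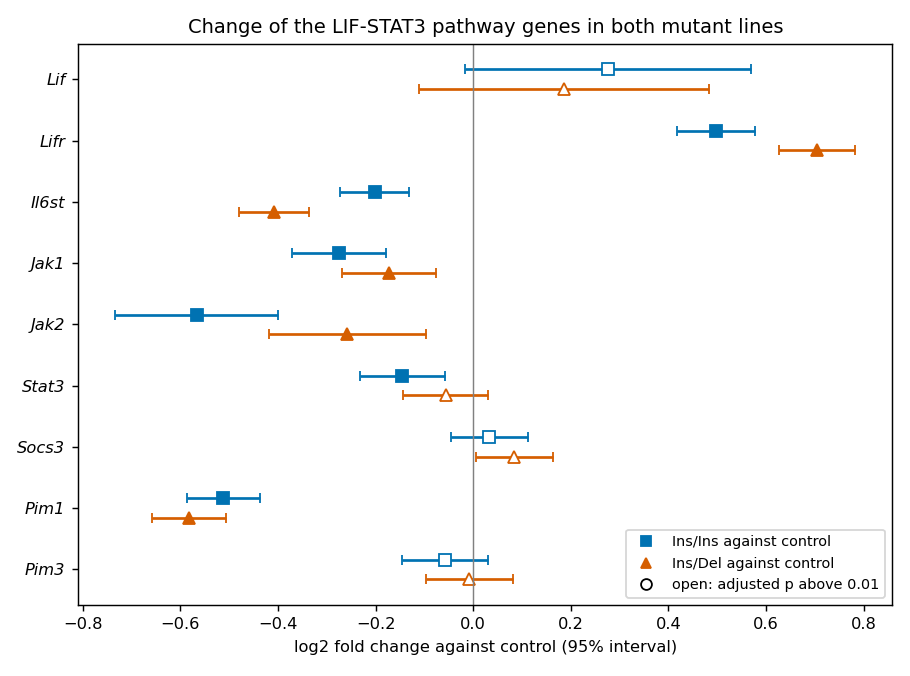
The log2 fold change against the control (x axis) of each LIF-STAT3 gene (y axis) in Ins/Ins (squares) and Ins/Del (triangles), with 95% intervals as bars and open symbols where the edgeR adjusted p was above 0.01. *Lifr* stands to the right of 0 in both lines, *Il6st*, *Jak1*, *Jak2* and *Pim1* stand to the left, and all points lie between -0.58 and 0.70.

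The ranges of 7 of the 9 members did not overlap between Ins/Ins and control, where 69.1% of all tested genes did not overlap. For Ins/Del the number was 6 of 9, against 72.8%. *Lif* in Ins/Ins and *Socs3* in Ins/Del were separate from the control in this sense without passing the test.

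The mutant lines were also compared with each other, in the same fit. Of the 9 members, 3 passed, while 10.8% of all tested genes did (6.17% higher and 4.64% lower). *Lifr* and *Jak2* were higher in Ins/Del than in Ins/Ins, and *Il6st* was lower. The same 3 members had ranges that did not overlap, against 34.1% of all tested genes. *Lifr* was 15.5% higher (log2 difference 0.21, SE 0.037, edgeR adjusted p = 7.24e-05), and *Il6st* was lower by a log2 difference of -0.21 (SE 0.036, edgeR adjusted p = 5.05e-05). For both receptor genes the difference from the control was thus larger in Ins/Del. *Jak2* was 23.9% higher in Ins/Del (log2 difference 0.31, SE 0.085, edgeR adjusted p = 0.00848), so its level was nearer the control there. This *Jak2* call was lost in DESeq2 (adjusted p = 0.0293) and in edgeR without Ins/Ins library 1 or 2 or without any 1 of the Ins/Del libraries, where the adjusted p lay between 0.0192 and 0.0559. *Stat3*, called in Ins/Ins alone, did not pass this test, with a log2 difference of 0.09 (95% interval 0.00 to 0.18, edgeR adjusted p = 0.159). *Pim1* differed by -0.07 (95% interval -0.15 to 0.01, edgeR adjusted p = 0.211), and *Lif*, *Jak1*, *Socs3* and *Pim3* did not pass either, with log2 differences from -0.09 to 0.10.

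Levels of different genes were compared as RPKM, counts divided by the exon length in kilobases and scaled to the effective library size. In the control, *Lif* was lowest at 0.965 ± 0.12 (SD, n = 3), followed by *Jak2* at 3.66 ± 0.22 (SD, n = 3). *Lifr*, *Jak1*, *Stat3* and *Il6st* stood close together at 9.12 ± 0.26, 10.8 ± 0.19, 10.9 ± 0.38 and 11.9 ± 0.20 (SD, n = 3), and *Jak1* and *Stat3* did not differ beyond their spread. The genes that STAT3 is known to activate were higher, with *Socs3* at 35.7 ± 1.4, *Pim1* at 53.1 ± 1.9 and *Pim3* at 80.8 ± 6.8 (SD, n = 3). In the mutants the order of the middle members changed. *Lifr* became the highest of the 4, at 12.9 ± 0.35 in Ins/Ins and 14.9 ± 0.82 in Ins/Del (SD, n = 3). *Il6st* stood at 10.3 ± 0.17 in Ins/Ins and, as the lowest of the 4, at 8.95 ± 0.12 in Ins/Del (SD, n = 3). *Pim1*, at 37.2 ± 1.7 and 35.5 ± 1.1 (SD, n = 3), stood within the spread of *Socs3* in Ins/Ins and below it in Ins/Del, at 36.6 ± 0.95 and 37.9 ± 1.1 (SD, n = 3). These orders depend on the length used: with the longest transcript, *Il6st* fell below *Jak1* and *Stat3* in the control, at 15.2 beside 15.9 and 17.1, and *Lifr* was highest of the 4 only in Ins/Del, at 16.6 beside 16.5 for *Stat3*. *Pim1* then had the higher mean in both lines, at 46.4 beside 41.4 for *Socs3* in Ins/Ins and 44.2 beside 43.0 in Ins/Del.

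**Figure D3:**
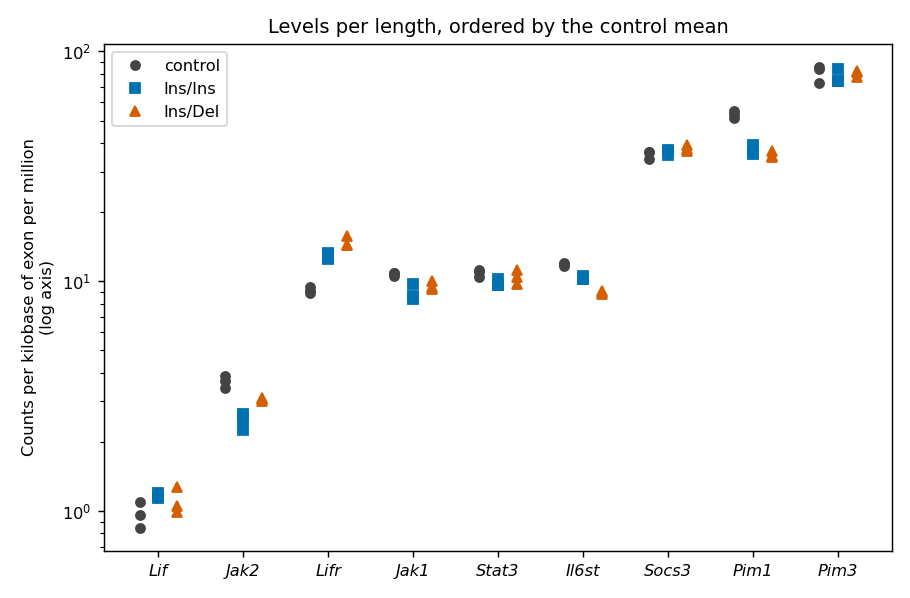
RPKM (counts per kilobase of exon scaled to library size, y axis, log scale) of each LIF-STAT3 gene (x axis, ordered by the control mean), 1 point per library, for the control (circles), Ins/Ins (squares) and Ins/Del (triangles). *Lif* lies near 1, *Jak2* between 2.26 and 3.87, and *Pim3* between 73.0 and 85.5. *Lifr* rises above *Jak1*, *Stat3* and *Il6st* in both mutants.

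To set the members in their surroundings, 73 genes of the pathway were listed, of which 69 were tested. *Il6*, *Il11*, *Clcf1* and *Osmr* were too low to test. Of the 60 tested genes that were not members, 20 rose and 24 fell in Ins/Ins, which is 73.3% beside the 58.4% of all genes, and 19 rose and 24 fell in Ins/Del, which is 71.7% beside 62.5%. Between the mutants, 5 were higher and 4 lower in Ins/Del, which is 15% beside 10.8%.

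Among the ligand genes of the family, 6 were tested, and 2 rose and 1 fell in each line. That is 50% called, beside 58.4% and 62.5% of all tested genes. The fall, in a gene not reported here by name, was larger on the log2 scale than any rise. *Ctf2*, a relative of cardiotrophin, rose in both lines (log2 fold changes 1.72 and 2.30, with SEs of 0.48 and 0.45). It went from 2.1 to 5.4 normalized counts in the control to 11.3 to 15.9 in Ins/Ins and 12.3 to 33.6 in Ins/Del. Its call in Ins/Ins was lost without control library 2 (edgeR adjusted p = 0.0155). *Osm*, which encodes oncostatin M, passed in Ins/Del (log2 fold change 1.64, edgeR adjusted p = 0.00138) and not in Ins/Ins (1.35, edgeR adjusted p = 0.011), and the difference between the lines did not pass (0.30, edgeR adjusted p = 0.634). Its call in Ins/Del was lost without Ins/Del library 3 (edgeR adjusted p = 0.013), and in Ins/Ins it passed without Ins/Ins library 1 (edgeR adjusted p = 0.0053). *Cntf* passed in Ins/Ins alone (log2 fold change 1.08), but 78.9% of its exons overlap *Zfp91* on the same strand, so its count is uncertain. The call was lost in DESeq2 (adjusted p = 0.026) and in edgeR without control library 1 or 2 or Ins/Ins library 1 (adjusted p between 0.0239 and 0.0615), and the difference between the lines did not pass (-0.18, edgeR adjusted p = 0.735).

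All 5 receptor genes tested passed in both lines, where 58.4% and 62.5% of all tested genes did. Beside *Lifr* and *Il6st*, *Cntfr*, the receptor chain that adds to LIFR and gp130 to bind CNTF, fell from 262 to 279 normalized counts in the control to 25.4 to 43.6 in Ins/Ins and 48.6 to 76.7 in Ins/Del (log2 fold changes -2.93 and -2.09). It was higher in Ins/Del than in Ins/Ins by 0.84 (log2, edgeR adjusted p = 0.00159). *Il11ra1* fell in both lines (log2 fold changes -0.81 and -0.85), from 46.6 to 54.5 normalized counts in the control, and lost its call in DESeq2 (adjusted p = 0.0173 and 0.014), in Ins/Ins without control library 2 or Ins/Ins library 1 or 2 (edgeR adjusted p between 0.0112 and 0.0227), and in Ins/Del without Ins/Del library 2 (edgeR adjusted p = 0.0214). *Il6ra*, the interleukin-6 receptor chain, rose in both lines from 25.6 to 36.8 normalized counts to 59.0 to 67.7 and 64.4 to 70.6 (log2 fold changes 1.04 and 1.14).

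Of the 11 JAK and STAT genes, 4 rose and 5 fell in Ins/Ins, while in Ins/Del 4 rose and 4 fell, which is 81.8% and 72.7% called beside 58.4% and 62.5% of all tested genes. *Tyk2*, the JAK family kinase that shares receptors with JAK1, rose in both lines (log2 fold changes 0.30 and 0.20), as did *Stat6* (0.28 and 0.31) and *Stat5a* (0.78 and 0.79), while *Stat5b* (-0.68 and -0.54) and *Stat4* (-0.44 and -0.76) fell. *Stat5a* and *Stat5b* are near-identical paralogs, and reads could have been split between them. *Stat4* shares 26.7% of its exons with the annotated gene Gm28177. The *Tyk2* call in Ins/Del was lost in DESeq2 (adjusted p = 0.0102) and without control library 3 or Ins/Del library 1 (edgeR adjusted p = 0.0385 and 0.0387). *Jak3* passed in Ins/Ins alone (log2 fold change 0.25), and the difference between the lines did not pass (-0.23, edgeR adjusted p = 0.0536). The *Jak3* call was lost in 6 of 16 alternatives: in DESeq2 (adjusted p = 0.0414), with total counts (edgeR adjusted p = 0.0143), and without control library 1 or 3 or Ins/Ins library 1 or 3 (edgeR adjusted p between 0.0101 and 0.0548). The absolute log2 fold change of *Stat3* was below those of *Stat4*, *Stat5a*, *Stat5b* and *Stat6* in both lines. *Stat2* did not pass in either line (-0.0040 and -0.076). Its absolute change was below that of *Stat3* in Ins/Ins and above it in Ins/Del. None of these orders was tested as a difference.

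The 12 listed STAT3 targets did not move in 1 direction. The transcription factor genes *Klf4*, *Klf5* and *Tfcp2l1* rose in both lines. *Klf4* went from 2159 to 2360 normalized counts in the control to 3659 to 3920 in Ins/Ins and 3822 to 4064 in Ins/Del (log2 fold changes 0.73 and 0.77). *Klf5* rose by 0.77 and 0.85 and *Tfcp2l1* by 0.87 and 0.81 on the log2 scale. *Bcl3*, a nuclear IκB protein, also rose (0.35 and 0.43). *Gbx2*, a homeobox gene, fell by log2 fold changes of -1.70 and -1.33, from 881 to 995 normalized counts in the control to 285 to 306 and 351 to 414, although 43.5% of its exons overlap D130058E05Rik on the opposite strand. *Junb*, an AP-1 gene that cytokines induce early, fell in both lines (-0.68 and -0.71). *Myc* fell in Ins/Ins (-0.53, edgeR adjusted p = 1.27e-11) and did not pass in Ins/Del (-0.10, edgeR adjusted p = 0.0805), and here the difference between the lines did pass (0.43, edgeR adjusted p = 5.55e-08). The survival gene *Bcl2l1* passed in Ins/Ins alone (-0.18), a call lost without control library 2 or Ins/Ins library 1 or 2 (edgeR adjusted p between 0.0133 and 0.0277), and the lines' difference did not pass (0.07, edgeR adjusted p = 0.418). *Mcl1* did not pass in either line (0.04 and 0.07), but in Ins/Del it passed in 6 of 16 alternatives: in DESeq2 (adjusted p = 0.00584), and in edgeR with DESeq2's size factors (0.00954), with only the 2 groups compared (0.00626), without control library 3 (0.00467) or Ins/Ins library 1 (0.00499), and at the limit of 0.05 (0.019). With *Socs3*, *Pim1* and *Pim3*, the 12 targets gave 4 higher and 5 lower in Ins/Ins and 4 higher and 3 lower in Ins/Del, which is 75% and 58.3% called beside 58.4% and 62.5% of all tested genes. Their median log2 fold changes were -0.01 and 0.03.

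The third Pim gene, *Pim2*, fell most of the family, from 2826 to 3021 normalized counts in the control to 503 to 557 in Ins/Ins and 538 to 610 in Ins/Del. Its log2 fold changes were -2.46 (SE 0.048, edgeR adjusted p = 3.13e-33) and -2.36 (SE 0.048, edgeR adjusted p = 4.41e-33), beyond those of *Pim1* and *Pim3*. The 3 Pim genes together had 9388 to 9984 normalized counts per control library, 5997 to 6635 per Ins/Ins library and 6076 to 6472 per Ins/Del library. *Pim2* made up 28.3% to 32.2% of that sum in the control, 7.85% to 9.14% in Ins/Ins and 8.68% to 9.43% in Ins/Del.

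**Figure D4:**
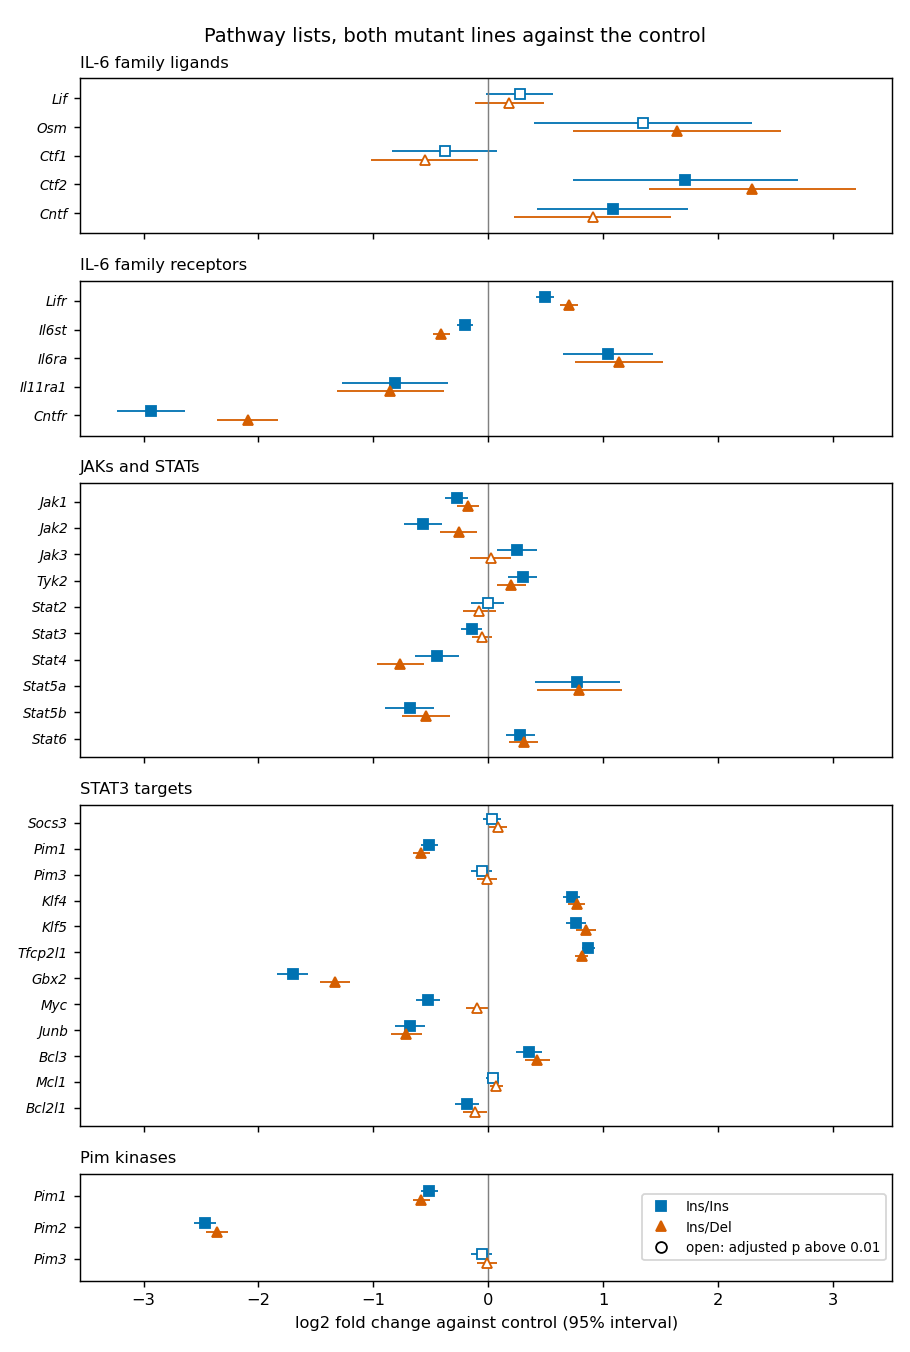
The log2 fold change against the control (x axis) with 95% intervals for tested ligands, receptors, JAKs and STATs, STAT3 targets and Pim kinases (y axes), with Ins/Ins as squares and Ins/Del as triangles, and open symbols where the edgeR adjusted p was above 0.01. *Cntfr* and *Pim2* lie below -2 in both lines, *Klf4*, *Klf5* and *Tfcp2l1* lie between 0.73 and 0.87, and *Socs3* and *Pim3* lie near 0.

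The inhibitors of JAK-STAT signalling, a list of SOCS, PIAS and phosphatase genes that includes *Socs3*, gave 2 higher and 6 lower of 15 in Ins/Ins and 0 higher and 8 lower in Ins/Del. That is 53.3% called in each line, below the 58.4% and 62.5% of all tested genes. By direction, 29.0% of all tested genes were higher and 29.4% lower in Ins/Ins. In Ins/Del, 30.6% were higher and 31.9% lower. Whether the directions of the list differ from these shares was not tested. *Socs4*, a SOCS box protein, had the largest fall among those that passed in both lines, from 309 to 351 normalized counts in the control to 158 to 189 and 184 to 195 (log2 fold changes -0.92 and -0.81). On the MAPK and PI3K branches of LIF signalling, 7 of 20 genes rose and 8 fell in Ins/Ins, while 8 rose and 8 fell in Ins/Del, which is 75% and 80% called beside the same background. *Tbx3*, a transcription factor that LIF sustains through PI3K, rose most, from 720.0 to 759 normalized counts to 2690.4 to 2898 and 3074 to 3290 (log2 fold changes 1.91 and 2.12).

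The genes whose pattern was most like that of *Stat3*, *Lifr* and *Pim1* were sought by Pearson correlation of log2 CPM (counts scaled to library size) over the 9 libraries, among 12711 genes. For *Stat3* they were *Zfp619*, *Jmjd4* and *Sema6b*, with r of 0.93 each. For *Lifr* they were LOC105246506, *Cacna1s* and *Zscan4d* (r of 0.995, 0.995 and 0.994), of which *Zscan4d* belongs to a family of near-identical copies. For *Pim1* they were *Tsc22d1*, *Sfrp2* and *Tmem246* (r of 0.997, 0.996 and 0.995). These values describe 9 libraries that fall into 3 lines. They set no gene apart. For *Lifr* and *Pim1*, 2239 and 2389 genes had r above 0.9, and for *Stat3* 7 did. Whether 7 of 12711 genes is more than an unrelated gene would give over 9 libraries was not tested.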

How the data were processed

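The authors isolated total RNA for 9 ESC libraries, made libraries with the Kapa mRNA HyperPrep kit, aligned the reads to mm10 with STAR 2.7.3 and counted them with HTSeq, per the submitters' processing notes, which also name DESeq2 1.22.2. The HTSeq version, annotation and strand setting are not given in the sources used here. The deposited files hold raw counts per gene symbol for each library.

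Groups were taken from the genotype labels. Low genes were removed with filterByExpr and TMM factors computed in edgeR 4.0.16 (R 4.3.3). A single quasi-likelihood model by group, without covariates, was fitted to the 9 libraries (glmQLFit, glmQLFTest). P-values were adjusted by the Benjamini-Hochberg method over 14125 genes, with calls at or below 0.01, the study's own limit. The fit was run on counts simulated from its own model with 200 changed genes. Far more genes were called in the real data, so the simulation does not check the fit under such wide change. SEs were derived from the fold change and its F statistic. Gene positions, gene lengths and exon overlaps came from GENCODE on GRCm38. Since the annotation used for counting is not known, the exons counted may differ from these. Levels per length, the *Lifr* per *Il6st* ratio and the overlaps share this limit. The members and lists were chosen with earlier results of these data known. All members and any tested ligand, receptor, JAK, STAT, Pim gene or STAT3 target could be named, and of the other lists the gene with the largest rise and fall among those called in both mutants. Similar genes had a mean normalized count above 20. Alternatives were DESeq2 1.42.0, its size factors, total counts, no filter, the 2 groups alone, a replicate block, each library left out, a limit of 0.05 and another gene length. Some list genes are counted but not reported here by name.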

Additional observations from a re-analysis of the deposited data

Results flagged for a closer look

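For 3 members the change from the control differed between the mutant lines by a direct test of Ins/Del against Ins/Ins in the fit of all 9 libraries. *Lifr* differed by 0.21 on the log2 scale, the rise being larger in Ins/Del. *Il6st* differed by -0.21, the fall being larger in Ins/Del. *Jak2* differed by 0.31, the fall being smaller in Ins/Del, but this call was lost in 6 of 16 alternatives. Each line is 1 clone with 3 libraries, so the alleles and the clones cannot be told apart. Single libraries far from their group were not looked for, since the groups hold 3 libraries each.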

How the results depend on the processing

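Each comparison was recomputed under 16 alternatives. Of the 27 member comparisons, 22 kept their direction and their side of the limit under all 16, among them the calls of *Lifr*, *Il6st* and *Pim1*. Of the 432 recomputed member values, 19 lost their call (*Stat3* in Ins/Ins, *Jak1* and *Jak2* in Ins/Del, and *Jak2* between the mutants) and 7 turned direction. The latter were all *Pim3* in Ins/Del, whose log2 fold change was 0.0021 in DESeq2, 0.0013 with DESeq2's size factors in edgeR, 0.0060 with only the 2 groups, and -0.0641 to 0.0366 leaving out 1 library. *Stat2* in Ins/Ins gave 0.0020 with no filter and -0.0371 to 0.0343 leaving out 1 library, and *Jak3* in Ins/Del -0.0698 to 0.131. The causes were not tested.

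Leaving out 1 library, 2 to 4 members were lower in Ins/Del than in the control, and 1 to 2 were higher in Ins/Del than in Ins/Ins, with 1 in DESeq2. Between the mutants, 576 to 943 of all genes were then higher and 406 to 703 lower, 421 were lower in DESeq2, and a limit of 0.05 gave 1426 higher and 1256 lower. Of the pathway genes, 4 to 7 were then higher and 3 to 5 lower, 3 were lower in DESeq2, and 8 at the limit of 0.05. With the longest transcript as the length, control levels in RPKM were 10.2 for *Lifr*, 15.2 for *Il6st*, 15.9 for *Jak1*, 17.1 for *Stat3*, 40.5 for *Socs3* and 66.2 for *Pim1*.

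Libraries with the same replicate number did not deviate together, with correlations from -0.04 to 0.03 over 9 pairs, beside -0.05 to 0.09 over 18 pairs with different numbers. With the replicate number as a block, 1 member was higher and 5 were lower in Ins/Ins, 1 and 4 in Ins/Del, and 2 and 1 between the mutants, the counts of the fit without the block. Of the 9 members, depth limits *Lif* most, at 64 to 108 reads per library, and the scarcer list genes *Ctf2* and *Osm* have larger errors (SE up to 0.48 and 0.47).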
